A study of Mus musculus with 6 samples.

Results

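Potassium channel subunits were examined in whole mouse kidney at postnatal day 60, by counting RNA-seq reads per gene in 3 control kidneys and 3 kidneys in which the transferrin receptor TfR1 (gene Tfrc) was targeted with KspCre. The members were the genes with a symbol of the form Kcn, a family suffix and a number, and with at least 10 counts in at least 3 of the 6 libraries. Of the 24422 genes counted, 92 symbols had this form and 56 of them passed the count rule. These were 10 inward rectifiers (Kcnj), 7 two-pore domain channels (Kcnk), 21 voltage-gated pore and modulatory subunits (Kcna, Kcnb, Kcnc, Kcnd, Kcnf, Kcng, Kcnh, Kcnq and Kcns), 8 calcium- or sodium-activated channels (Kcnma, Kcnn, Kcnt and Kcnu) and 10 auxiliary subunits (Kcne, Kcnab, Kcnip and Kcnmb). The rule used counts and not the difference between genotypes, but Kcns1 passed it only through the controls, and Kcnk13 and Kcnh8 only through the knockouts.

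All 6 mice were C57BL/6 and had an iron-sufficient diet (220 ppm). The control mice were labelled wild type, and the knockout mice Tfr1f/f;KspCre, a genotype in which TfR1 exons flanked by recombination sites are cut out by Cre expressed from the Ksp-cadherin promoter. That promoter is active mainly in the distal nephron, while whole-kidney RNA also holds proximal tubule, vessels, stroma and leukocytes. Replicates were separate biological samples by the design text. The comparison asks how transcripts of the adult kidney differ when TfR1 is lost in the distal segments.

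Potassium channels let potassium leave the cell down its gradient and so set the membrane voltage. In renal tubules, basolateral channels return to the blood the potassium that the sodium pump brings in, and apical channels secrete potassium into the urine. In smooth muscle they oppose contraction, and in T cells and macrophages they hold the driving force for calcium entry. Most are tetramers of pore subunits, two-pore domain channels are dimers, and auxiliary subunits change gating or trafficking without forming a pore.

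One feature shared by most pore subunits, which the choice of members did not use, is the coding sequence of the selectivity filter, the short loop that coordinates potassium. A run of 5 codons, namely ACN, then any codon with T in the middle, then GGN, then any codon that starts with T, then GGN (N is any base), was searched in frame on the coding strand of the longest coding transcript of each gene (GENCODE M1, mm9). The run was found in 38 of the 56 members, against 188 of all 22594 coding genes (0.832%). All 10 inward rectifiers held it 1 time, 5 of 7 two-pore genes held it 2 times, Kcnk6 held it 1 time and Kcnk1 did not hold it. It was found in 17 of 21 voltage-gated genes (not in Kcnh1, Kcnh2, Kcnh3 and Kcnh8) and in 5 of 8 calcium- or sodium-activated genes (not in Kcnn1, Kcnn2 and Kcnn3). None of the 10 auxiliary genes held it. A missing match says only that these letters were not in the transcript searched. The sequences shown are those of 5 members that the results describe, 30 bases each from 5′ to 3′ on the coding strand, with the 5 codons in capitals. They show how alike the filter is across families, and the 2 filters of Kcnk5.
Kcnj1: acccaagtgACCATAGGTTACGGAttcagg
Kcnj10: tcccagaccACCATCGGCTATGGCttccgc
Kcnk5, first filter: gtcatcaccACCATCGGTTATGGCaatgtg
Kcnk5, second filter: accatctccACCATTGGCTTTGGGgacttt
Kcnt1: actttctcaACTGTGGGCTTCGGTgatgtg
Kcns1: agcatgaccACAGTGGGCTATGGGgatgtg
Despite this likeness, every 100-base word of the members' longest coding transcripts was absent from the longest coding transcript of every other gene. This search covered sequence alone and not genes that share a locus: 39.49% of the exon bases of Kcna6 overlap Gm17456 and 49.06% of those of Kcnj13 overlap Gigyf2, both on the opposite strand, so the levels of these members are uncertain.

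The libraries held 11501053 to 21001341 counts, with knockout 3 the smallest. On the first principal component of all genes (69.4% of the variance) the controls lay between -72.6 and -53.2, knockouts 2 and 3 at 88.6 and 82.1, and knockout 1 at 9.67, so knockout 1 stood apart from its group. Control 2 stood apart in another way, with 52 Xist counts and 3980 Y-linked counts, against 10458 to 23845 and 3 to 5 in the other 5 libraries. The labels used here do not give the sex. Tfrc itself was 138, 168 and 61.95 CPM in controls 1 to 3 and 214, 85.96 and 40.6 CPM in knockouts 1 to 3 (log2 fold change -0.11, SE 0.62, edgeR adjusted p = 0.911). The groups overlapped, so the level of the targeted gene in whole kidney was no check of the genotype labels. Kidney markers were present in every library: 5 podocyte markers, for example, summed to 526 to 651 CPM in controls and 638 to 942 CPM in knockouts.

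Of the 54 members that could be tested, 7 passed the genotype test (adjusted p below 0.05 in the quasi-likelihood test of edgeR, adjusted over all 15171 genes tested), which is 13% of members against 17.2% of all genes. Kcnn4 and Kcnh3 were higher in the knockout (3.7% of members, against 10.6% of all genes). Kcnj15, Kcnj16, Kcnk5, Kcnt1 and Kcns1 were lower (9.26% of members, against 6.64% of all genes). Kcns1 is counted here, but since it became a member through its control counts alone, its fall is a description and supports nothing. The groups did not overlap for 21 members (38.9%, against 46% of all genes), 11 of them higher in the knockout (23.8% of all genes) and 10 lower (22.2% of all genes). An unadjusted p under 0.05 was found for 22 members, 13 higher and 9 lower, against 38.6% of all genes (21% higher and 17.6% lower). Both counts hold Kcnk13 on the higher side, a member through its knockout counts alone, and Kcns1 on the lower side, so they are descriptions. The median log2 fold change was 0.17 over the members and 0.02 over all genes. The share of members called was thus near that of all genes, while the family medians ran from -0.88 (inward rectifiers) to 1.13 (voltage-gated). In bulk tissue, fewer cells of a type and less RNA per cell cannot be told apart. None of the 7 calls was made without knockout 3 (0.013% of all genes called, all of them higher), nor when any 1 of the 3 controls was left out, where 0 genes in all passed edgeR's test although 4270 to 4823 genes, 17 to 19 of them members, had an unadjusted p under 0.05. On all libraries, edgeR also called 0 genes with a replicate block and 0 with a covariate of Xist relative to Y-linked counts. With DESeq2's Wald test on all libraries, 13 members were called higher and 9 lower, against 17.2% and 15.1% of all genes (32.3% in all). Without knockout 2, Kcnt1 was the one member called (adjusted p = 0.0487), in an edgeR fit that called 0.474% of all genes (0.435% higher and 0.0389% lower).

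**Figure D1:**
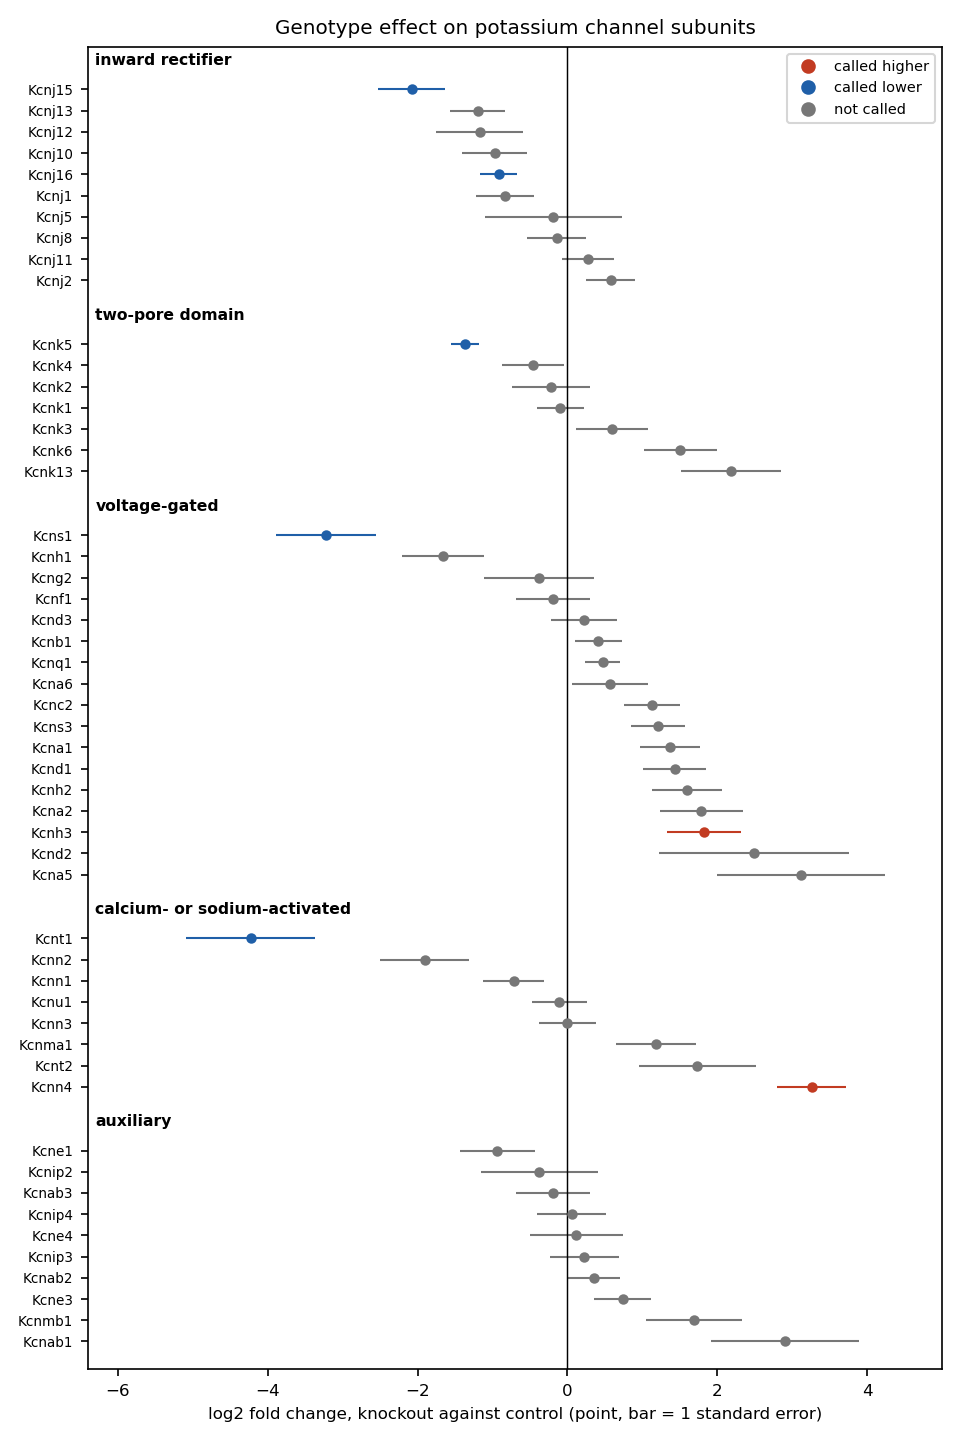
Log2 fold change of tested potassium channel subunits in the knockout against the control (x axis), 1 gene per line and grouped by family, where points are edgeR estimates from 3 control and 3 knockout libraries and bars are 1 standard error. The 2 members called higher are red, the 5 called lower are blue, 8 of 10 inward rectifiers lie below 0 and most voltage-gated subunits lie above it.

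The inward rectifiers were the most abundant family and lay mostly lower in the knockout: 2 of 10 were called lower (against 6.64% of all genes), none higher (10.6% of all genes), and 8 of 10 had a fold change below 0 (median -0.88 log2). They carry most of the resting basolateral potassium conductance of the tubule. Scaled to CPM per kilobase of exons, so that genes can be compared, the family summed to 453, 510.2 and 485 in the 3 controls and to 324, 183 and 169 in the 3 knockouts. The groups did not overlap, and knockout 1 lay between the controls and the other 2 knockouts.

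Kcnj15 (Kir4.2, chr16:95479165-95521867, plus strand, mm9), a basolateral channel known from proximal tubule, was 602, 1146 and 827 CPM in controls 1 to 3 and 328, 170.2 and 111 CPM in knockouts 1 to 3. All 3 knockouts lay below all 3 controls, 4.23-fold on average (log2 fold change -2.08, SE 0.45, edgeR adjusted p = 0.0332). Kcnj16 (Kir5.1, chr11:110829347-110889282, plus strand, mm9), which pairs with Kir4.1 or Kir4.2 and makes the channel sensitive to pH, was 629, 722 and 906 CPM in controls 1 to 3 and 504, 352 and 337 CPM in knockouts 1 to 3. The groups did not overlap and the fall was 1.89-fold (log2 fold change -0.92, SE 0.25, edgeR adjusted p = 0.0493). That call is close to the threshold and was not made with library size alone (0.0741), upper quartile scaling (0.0549) or no filter on low counts (0.0544).

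Kcnj10 (Kir4.1, chr1:174271341-174304216, plus strand, mm9), the distal partner of Kcnj16, was 149, 143 and 122 CPM in controls 1 to 3 and 116, 65.1 and 30.03 CPM in knockouts 1 to 3. The groups did not overlap, with knockout 1 just below the controls, but the difference did not pass the test (log2 fold change -0.97, SE 0.44, edgeR adjusted p = 0.15). Kcnj1 (ROMK, chr9:32180003-32206777, plus strand, mm9), the apical secretory channel of the thick ascending limb and collecting duct, was 537, 389 and 322 CPM in controls 1 to 3 and 375, 150.1 and 175 CPM in knockouts 1 to 3. Here knockout 1 lay within the control range, knockouts 2 and 3 below it, and the difference did not pass either (log2 fold change -0.83, SE 0.39, edgeR adjusted p = 0.162). Without knockout 1, both passed, Kcnj1 at -1.36 (adjusted p = 0.0107) and Kcnj10 at -1.55 (adjusted p = 0.0165), in a fit that called 34.4% of all genes. With any other single library left out neither passed, at -0.995 to -0.60 log2 for Kcnj1 and -1.06 to -0.61 log2 for Kcnj10.

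Kcnj13 (Kir7.1), a channel of transporting epithelia, was 2.34, 2.29 and 3.48 CPM in controls 1 to 3 and 1.52, 0.853 and 1.15 CPM in knockouts 1 to 3, with no overlap (log2 fold change -1.20, SE 0.37, edgeR adjusted p = 0.0636). The overlap with Gigyf2 given above bears on this level, because the strand setting of the counting was not given in the sources used here. Kcnj8 (Kir6.1), the pore of vascular ATP-sensitive channels, was 12.6, 11.2 and 7.504 CPM in controls 1 to 3 and 10.8, 12.7 and 4.75 CPM in knockouts 1 to 3, and Kcnj2 (Kir2.1), a classical strong rectifier, was 6.02, 7.29 and 7.56 CPM in controls 1 to 3 and 6.13, 13.6 and 11.5 CPM in knockouts 1 to 3. Neither passed the test (edgeR adjusted p = 0.816 and 0.232) and the groups overlapped for both. Kcnj2 lies 38195 bases from Kcnj16 on the same strand of chromosome 11, and the values of these neighbours lay on opposite sides of 0 (0.58 and -0.92 log2), a difference that was not tested. The other 3 members of the family, Kcnj5, Kcnj11 and Kcnj12, had no call.

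**Figure D2:**
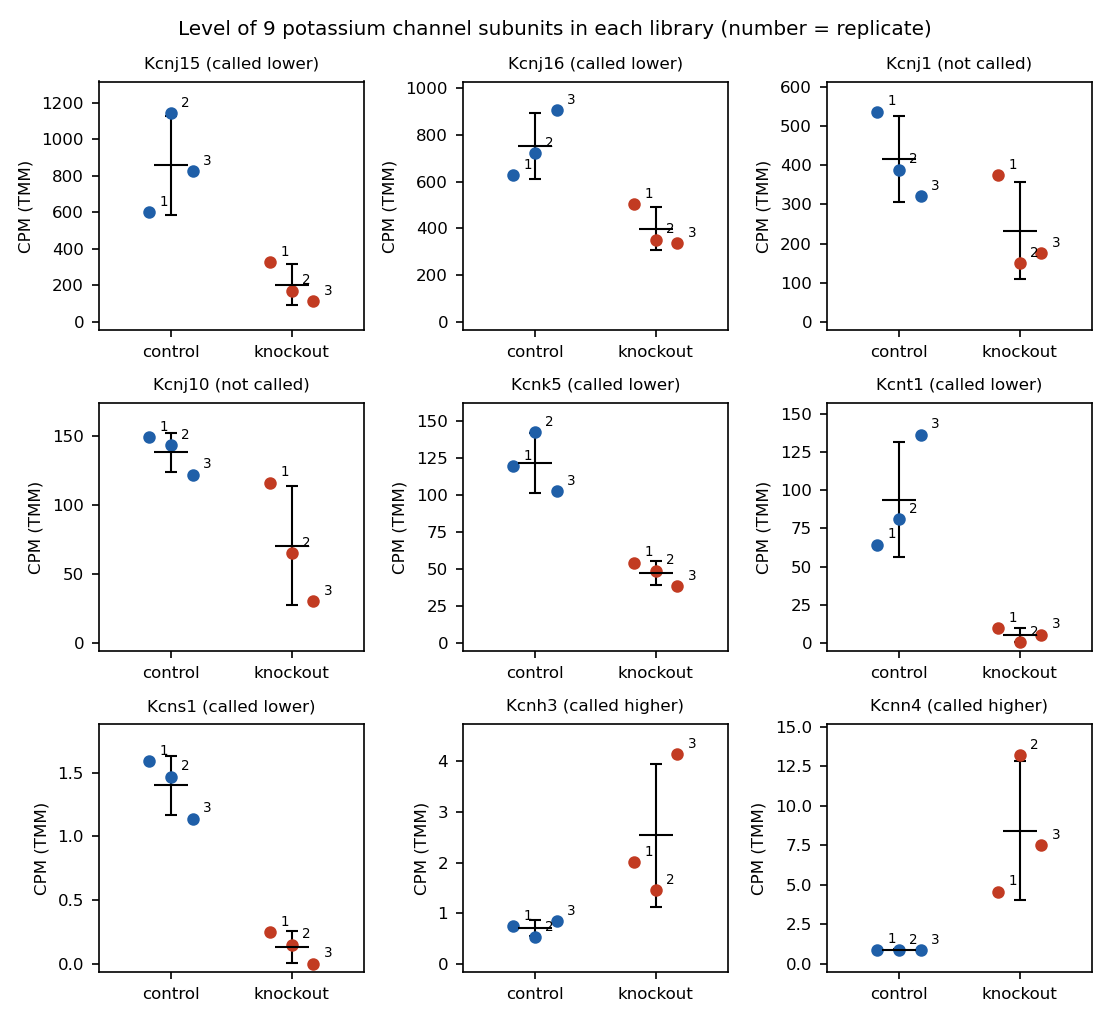
Level of 9 potassium channel subunits in CPM scaled by TMM (y axis, linear and different for each gene) in 3 control (blue) and 3 knockout (red) libraries, with the replicate number beside each point, a dash at the mean and bars of 1 SD. The groups do not overlap for 8 of these genes, and for Kcnj1 the knockout 1 library sits among the controls.

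The order of channels by level was not the same in the 2 genotypes. Per kilobase, controls were led by Kcnj16 at 191 ± 35.8, Kcnj15 at 128 ± 40.7 and Kcnj1 at 127 ± 33.8 (mean ± SD CPM per kilobase, n = 3). The spreads of Kcnj15 and Kcnj1 overlap widely, so their order is not resolved. Kcnk1 and Kcnk5 followed at 59.1 ± 20.2 and 36.1 ± 6.01. In each control Kcnj15 stood above Kcnk1 (89.7, 171 and 123 against 82.5, 47.6 and 47.3), and in each knockout it stood below it (48.8, 25.3 and 16.5 against 66.9, 36.9 and 62.5). Over the 55 members with a single gene model, from which exon length was taken, the summed level was 662, 671 and 661 CPM per kilobase in the 3 controls and 486, 317 and 338 in the 3 knockouts. The inward rectifier share of that sum was 68.5, 75.99 and 73.4% in the 3 controls and 66.7, 57.7 and 49.9% in the 3 knockouts, so it was lowest in knockouts 2 and 3. The voltage-gated share was 7.57, 5.04 and 6.72% in the controls and 9.9002, 12.9 and 18.4% in the knockouts, with no overlap. The summed voltage-gated level itself was 50.2, 33.9 and 44.4 CPM per kilobase in the controls and 48.1, 41.1 and 62.3 in the knockouts, and there the groups overlapped.

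**Figure D3:**
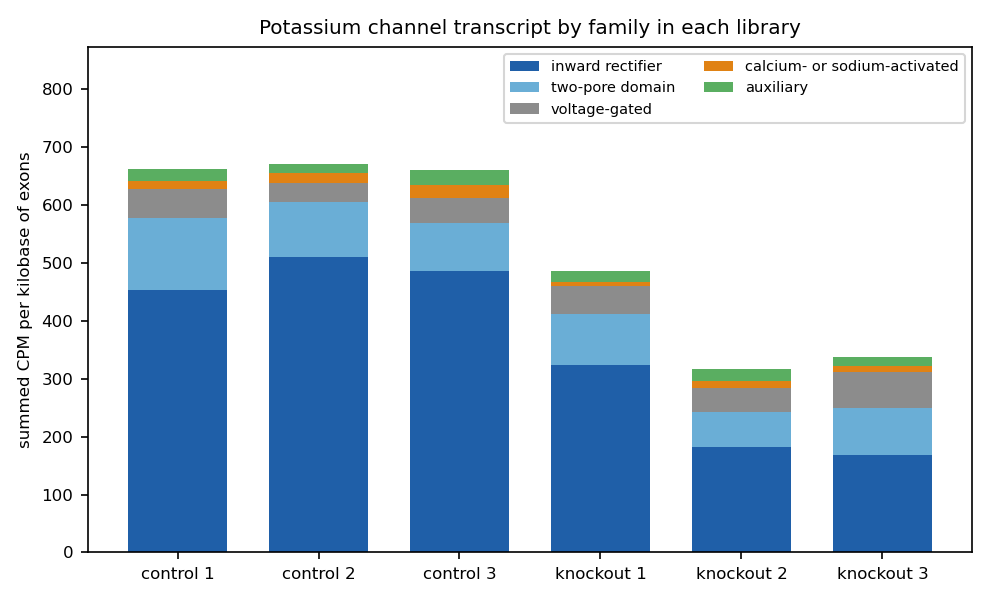
Summed level of potassium channel transcripts in each library, in CPM per kilobase of exons (y axis, from 0), stacked by the 5 families over 55 members. The 3 controls stand at 661 to 671, knockout 1 at 486 and knockouts 2 and 3 at 317 and 338, and the dark blue inward rectifier part accounts for most of the difference.

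Among two-pore domain channels, which carry background potassium current, Kcnk5 was lower in the knockout and no other member passed the test. Kcnk5 (TASK2, chr14:20959280-21001004, minus strand, mm9), an alkaline-activated channel of the proximal tubule, was 119.6, 143 and 102 CPM in controls 1 to 3 and 54.3, 48.8 and 38.5 CPM in knockouts 1 to 3. The groups lay well apart, 2.57-fold (log2 fold change -1.36, SE 0.19, edgeR adjusted p = 0.0271). Kcnk1 (TWIK1), a weak rectifier abundant in kidney, was 189.8, 109.6 and 109 CPM in controls 1 to 3 and 154, 84.8 and 144 CPM in knockouts 1 to 3 and the groups overlapped (log2 fold change -0.09, SE 0.31, edgeR adjusted p = 0.844). Its standard error was larger than its change, and the sign turned with library size alone (0.16).

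The other tubular members did not pass. Kcnq1 (KvLQT1), a voltage-gated pore found at the proximal brush border, was 49.4, 42.8 and 49.9 CPM in controls 1 to 3 and 74.7, 43.7 and 78.99 CPM in knockouts 1 to 3 (log2 fold change 0.47, edgeR adjusted p = 0.181). Its auxiliary subunit Kcne1 was 25.8, 29.2 and 49.3 CPM in controls 1 to 3 and 27.5, 20.1 and 6.59 CPM in knockouts 1 to 3, with knockout 3 far below the rest (log2 fold change -0.94, edgeR adjusted p = 0.211). The fitted changes of this channel pair had opposite signs and neither passed. Kcna1 (Kv1.1), known for its part in magnesium handling by the distal convoluted tubule, was 0.746, 0.529 and 1.02 CPM in controls 1 to 3 and 1.52, 2.61 and 1.84 CPM in knockouts 1 to 3, low in every library and higher in all 3 knockouts (log2 fold change 1.37, edgeR adjusted p = 0.057). Kcnma1, the pore of the large-conductance BK channel, was 2.94, 5.41 and 2.94 CPM in controls 1 to 3 and 3.14, 11.5 and 10.96 CPM in knockouts 1 to 3, high in knockouts 2 and 3 alone (log2 fold change 1.18, edgeR adjusted p = 0.152). Of the 11 members known from tubule epithelium, 3 were thus called lower (Kcnj15, Kcnj16 and Kcnk5), against 6.64% of all genes, none higher, against 10.6%, and 8 had a fold change below 0 (median -0.92 log2, against 0.02 over all genes).

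Proximal tubule markers were lower beside these genes. All 10 proximal tubule markers were below 0 and 7 were called lower (median -2.14 log2), against 6.64% of all genes. Their summed level was 11636 to 16849.5 CPM in controls and 2035 to 6145 CPM in knockouts. For Slc7a13, which was not called, the groups overlapped and control 2 stood far above the rest. It was 10.8, 880 and 1.14 CPM in controls 1 to 3 and 18.1, 2.01 and 0.843 CPM in knockouts 1 to 3. Thick ascending limb markers summed to 5126 to 11345 CPM in controls and 779 to 6599 CPM in knockouts, with 0 of 5 called and 2 of 5 below 0 at an unadjusted p under 0.05. Of these 5, Cldn16 lay above 0, with a mean of 12.9 CPM in controls and 20.3 CPM in knockouts. Distal convoluted tubule markers summed to 1572 to 2347 CPM in controls and 392 to 1656 CPM in knockouts, with 1 of 5 called lower. No marker of these 3 lists was at 0 in a whole group. The part of segment loss in the lower levels of Kcnj15, Kcnj16 and Kcnk5 was not tested. Principal cell markers summed to 774 to 1149.7 CPM in controls and 229.9 to 1359.6 CPM in knockouts. Intercalated cell markers summed to 335 to 421 CPM in controls and 169 to 537 CPM in knockouts. In each of these lists 0 of 5 was called by edgeR and 1 of 5 was lower at an unadjusted p under 0.05, while 3 of the 5 intercalated cell markers had a fold change above 0 (list median 0.60 log2).

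The largest fall among the tested members was that of Kcnt1 (Slack, chr2:25719315-25773793, plus strand, mm9), a sodium-activated channel best known from neurons. It was 64.3, 81.05 and 137 CPM in controls 1 to 3 and 9.32, 0.502 and 5.21 CPM in knockouts 1 to 3, a fall of 18.7-fold (log2 fold change -4.23, SE 0.86, edgeR adjusted p = 0.0317). Leaving out 1 library moved this size to -5.13 log2 without knockout 1 and -3.68 without knockout 2. All 3 knockouts lay below the controls, and knockout 2 had 10 counts against 1293 to 2275 counts in the controls. Per kilobase it was number 9 of 55 members in the controls, at 12.5 ± 5.02 CPM per kilobase. Its homologue Kcnt2 was 1.54, 1.94 and 1.32 CPM in controls 1 to 3 and 1.13, 11.3 and 3.52 CPM in knockouts 1 to 3, with knockout 2 high and no call (log2 fold change 1.74, edgeR adjusted p = 0.148, and 0.51 without knockout 2), and was picked here after its values were seen. The 6 markers of nerve and glia summed to 5.23 to 12.7 CPM in controls and 8.59 to 11.3 CPM in knockouts, with 0 of 4 tested markers called or at an unadjusted p under 0.05. Levels of different genes do not give the cell that a transcript came from, and the source of Kcnt1 was not tested.

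Kcns1 (Kv9.1, chr2:163989355-163996849, minus strand, mm9), a silent subunit that modifies Kv2 channels, was 1.59, 1.47 and 1.14 CPM in controls 1 to 3 and 0.245, 0.151 and 0 CPM in knockouts 1 to 3. It was low everywhere, with 32, 25 and 19 counts in the controls and 5, 3 and 0 in the knockouts, and the groups did not overlap (log2 fold change -3.22, and -3.90 without knockout 1). The count rule admitted it through the controls alone, so its call, which is included in the counts of members called, is no independent test. Kcnh3 (Elk2, chr15:99055292-99073248, plus strand, mm9), a voltage-gated channel known from brain, was 0.746, 0.529 and 0.84 CPM in controls 1 to 3 and 2.01, 1.46 and 4.14 CPM in knockouts 1 to 3. It was higher in all 3 knockouts, with 15, 9 and 14 counts in the controls and 41, 29 and 54 in the knockouts (log2 fold change 1.82, SE 0.49, edgeR adjusted p = 0.0479). This call was not made with limma-voom (0.0705) or with no filter on low counts (0.0554). Over the 19 tested voltage-gated members, 14 had a fold change above 0 (median 1.13 log2), 1 was called higher and, with Kcns1, 1 lower, against 10.6% and 6.64% of all genes.

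Kcnn4 (KCa3.1, chr7:25155282-25170228, plus strand, mm9), a calcium-activated channel of T cells, macrophages and red cells, was 0.896, 0.882 and 0.84 CPM in controls 1 to 3 and 4.56, 13.2 and 7.51 CPM in knockouts 1 to 3. The controls were close together (0.873 ± 0.0287 CPM, mean ± SD, n = 3) and all 3 knockouts lay above them, 9.59-fold on average (log2 fold change 3.26, SE 0.46, edgeR adjusted p = 0.0271). The other members known from leukocytes lay on the same side but did not pass. Kcnk6 (TWIK2), a channel of macrophages, was 2.49, 3.88 and 1.86 CPM in controls 1 to 3 and 4.32, 12.6 and 6.51 CPM in knockouts 1 to 3, and Kcnk13 (THIK1), a channel of microglia and macrophages, was 0.299, 0.294 and 0.48 CPM in controls 1 to 3 and 0.687, 3.11 and 1.07 CPM in knockouts 1 to 3. For both the groups did not overlap and knockout 2 was the highest (log2 fold change 1.51, SE 0.48, edgeR adjusted p = 0.0688 for Kcnk6, and 2.18 for Kcnk13). Without knockout 2 these were 0.97 and 1.27 log2. Kcnab2, a cytoplasmic beta subunit of Kv1 channels, was 4.08, 4.35 and 8.04 CPM in controls 1 to 3 and 5.55, 7.33 and 8.27 CPM in knockouts 1 to 3, and its groups overlapped (edgeR adjusted p = 0.476). With Kcnj2, these 5 members all had a fold change above 0 (median 1.51 log2) and 1 of 5 was called higher, against 10.6% of all genes. Kcnk13 became a member through its knockout counts alone, so its sign is not independent of that choice.

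Leukocyte markers were mostly higher in the knockout. Their 13 genes summed to 191, 174 and 186 CPM in controls 1 to 3 and 483, 1755 and 631 CPM in knockouts 1 to 3, and all 13 had a fold change above 0. Of these, 9 were called higher, against 10.6% of all genes, and Csf1r, Cd8a, Cd79a and Ms4a1 were not called. Among the macrophage genes, Lyz2 and C1qa averaged 29.9 and 17.5 CPM in controls and 474 and 155 CPM in knockouts, and Cd68, Adgre1 and Itgam were called higher too. Csf1r averaged 106 CPM in controls and 128 CPM in knockouts, with overlapping groups and no call. The T cell genes Cd3e and Cd3g averaged 0.55 and 0.749 CPM in controls and 4.48 and 4.98 CPM in knockouts. Knockout 2 was the highest for the marker sum and for Kcnn4, Kcnk6, Kcnj2 and Kcnk13, the last a member through its knockout counts alone. For Kcnab2 of the same list, knockout 3 was the highest. The part of leukocyte number in these values was not tested.

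Of the 6 members known from smooth muscle, pericytes and endothelium, 0 were called by edgeR (against 17.2% of all genes), 2 had an unadjusted p under 0.05 (Kcna5 and Kcnmb1, against 38.6% of all genes), both called by DESeq2 (32.3% of all genes), and 1 library decided the largest values. Kcna5 (Kv1.5), a delayed rectifier of vascular smooth muscle, was 1.59, 0.764 and 1.68 CPM in controls 1 to 3 and 1.37, 3.81 and 30.3 CPM in knockouts 1 to 3. Knockout 3 was far above all others, and without it the log2 fold change went from 3.11 (SE 1.12, edgeR adjusted p = 0.0906) to 0.94. Kcnmb1, the smooth muscle beta subunit of BK, was 2.19, 1.65 and 2.401 CPM in controls 1 to 3 and 2.01, 5.42 and 12.9 CPM in knockouts 1 to 3, also with knockout 3 highest (log2 fold change 1.69, SE 0.64, edgeR adjusted p = 0.103, and 0.83 log2 without knockout 3). Kcnab1, a Kv1 beta subunit named here after its values were seen, was 1.14, 0.999 and 3.78 CPM in controls 1 to 3 and 2.65, 8.58 and 33.1 CPM in knockouts 1 to 3, in the same order over the knockouts (log2 fold change 2.90, 1.51 without knockout 3 and 3.77 without control 3).

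Kcnk3 (TASK1), an acid-sensitive background channel, was 11.3, 4.76 and 7.204 CPM in controls 1 to 3 and 10.8, 6.02 and 18.5 CPM in knockouts 1 to 3 (log2 fold change 0.59, edgeR adjusted p = 0.392). Kcnn3 (SK3), a small-conductance channel of endothelium, was 2.19, 2.41 and 1.501 CPM in controls 1 to 3 and 1.37, 1.51 and 3.29 CPM in knockouts 1 to 3, with equal group means within the spread (2.03 ± 0.474 and 2.06 ± 1.07 CPM, mean ± SD, n = 3). Over the 6 vessel members the median was 0.97 log2 and the groups overlapped for each, while they did not overlap for 46% of all genes. Smooth muscle markers summed to 156, 178 and 214 CPM in controls 1 to 3 and 271, 910.3 and 2515 CPM in knockouts 1 to 3, with 3 of 5 called higher. Fibroblast and pericyte markers summed to 593, 415 and 372 CPM in controls 1 to 3 and 889.8, 3103 and 3467 CPM in knockouts 1 to 3, with all 7 above 0 and 2 called higher. Endothelial markers summed to 312 to 607 CPM in controls and 557 to 625 CPM in knockouts, with 0 of 5 called and 2 of 5 higher at an unadjusted p under 0.05. Knockout 3 was the highest for the smooth muscle sum and the fibroblast and pericyte sum, as for Kcna5, Kcnmb1, Kcnk3, Kcnn3 and Kcnab1, the last not on the vessel list. Kcnj8 of the vessel list was lowest in knockout 3. Within the fibroblast and pericyte list, Rgs5 (145, 350 and 1242 CPM in knockouts 1 to 3), Col3a1 and Cspg4 were highest in knockout 3. Pdgfrb, Pdgfra, Dcn and Col1a1 were highest in knockout 2. The part of smooth muscle or pericyte content in these values was not tested.

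**Figure D4:**
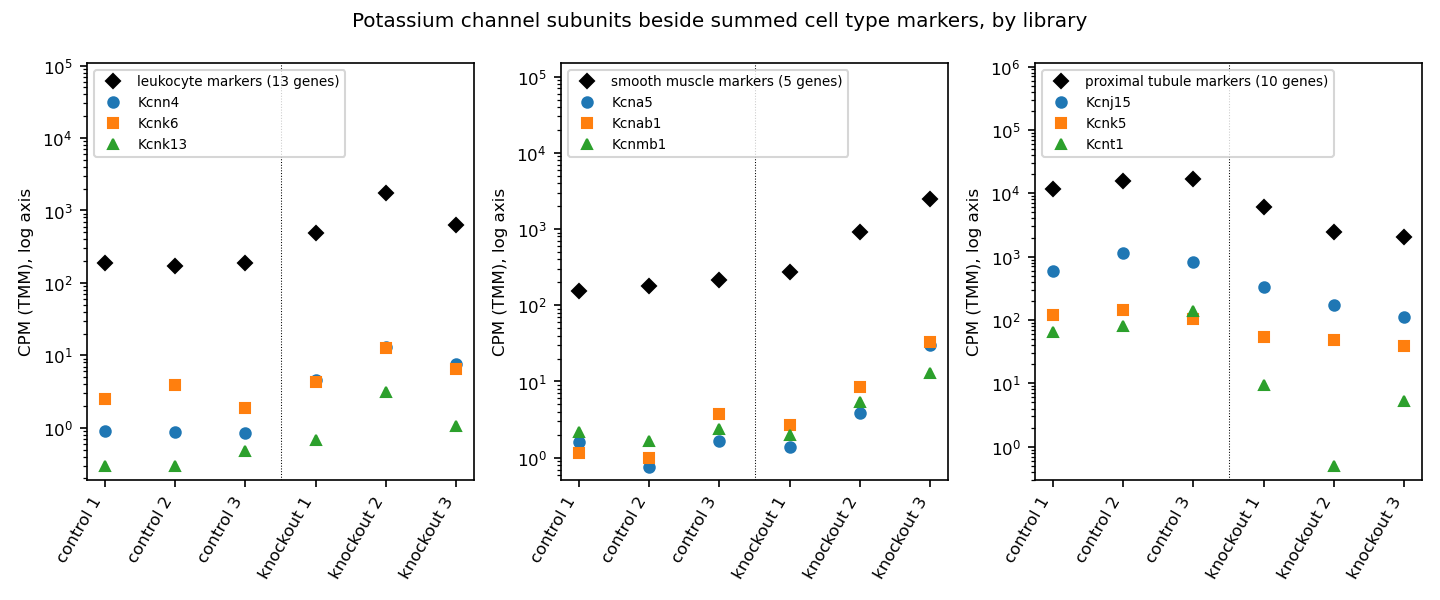
Level of 9 potassium channel subunits (coloured points) beside the summed level of a cell type's markers (black diamonds) in each of the 6 libraries, in CPM scaled by TMM on a log axis, with a dotted line between controls and knockouts. Leukocyte markers, Kcnn4, Kcnk6 and Kcnk13 are highest in knockout 2, smooth muscle markers, Kcna5, Kcnab1 and Kcnmb1 in knockout 3, and proximal tubule markers, Kcnj15, Kcnk5 and Kcnt1 are lower in all 3 knockouts. Kcnab1 and Kcnt1 are on neither the vessel nor the tubule list, and their panel says nothing of the cells that express them. Kcnab2 of the leukocyte list and Kcnj8 of the vessel list, not shown, do not share these orders.

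Of the 10 auxiliary subunits 0 were called by edgeR (17.2% of all genes), and 2 (Kcnab1 and Kcnmb1) had an unadjusted p under 0.05 (38.6% of all genes) and were called by DESeq2 (32.3% of all genes). Their median was 0.17 log2. Of the calcium- or sodium-activated channels 1 of 8 was called in each direction, against 10.6% of all genes higher and 6.64% lower (median -0.05 log2). Kcna7 and Kcnh8 passed the count rule but not the expression filter of the test. Kcnh8 had 0, 1 and 1 counts in the controls and 10, 35 and 12 in the knockouts. It was picked here after its values were seen, and since the rule admitted it through the knockouts alone these counts are a description.

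The libraries that stood apart bear on these counts. Without control 2 no gene was called, yet the 7 members kept their signs, with log2 fold changes of -1.83 (Kcnj15), -0.96 (Kcnj16), -1.24 (Kcnk5), -4.34 (Kcnt1), -3.20 (Kcns1, admitted through the controls), 3.26 (Kcnn4) and 1.65 (Kcnh3). Their adjusted p ranged from 0.118 to 0.158 in that edgeR fit. Without knockout 1, 31 of 55 tested members were called, 18 higher and 13 lower, against 34.4% of all genes (18% higher and 16.4% lower). The 7 members called in all libraries were among them. The higher count also holds Kcnk13 and Kcnh8, which the count rule admitted through the knockouts alone, and supports nothing for them. One of them is also among those higher with a filter of at least 10 counts in 3 libraries (Kcnh8), with DESeq2, with library size alone, at the unadjusted p and without control 2 and knockout 1 together. The members added to those higher included Kcna1, Kcna5, Kcnj2, Kcnk6, Kcnma1 and Kcnmb1, and those added to the lower included Kcnj1, Kcnj10 and Kcnj13. Kcnj5, whose level in knockout 1 was 7.66 CPM against 0.853 and 0.919 CPM in the other knockouts, went from -0.19 to -2.03 log2. Without control 2 and knockout 1 together, 8 members were called higher and 10 lower, against 10.8% and 11.7% of all genes (22.5% in all). With other settings on all 6 libraries, the counts of members called higher and lower were 10 and 4 with library size alone (19.7% and 4.36% of all genes, 24% in all), 2 and 4 with upper quartile scaling (12.2% and 6.03%, 18.2% in all), 2 and 4 with no filter on low counts (7.91% and 4.8%, 12.7% in all, where the 2 higher were Kcnn4 and Kcnh8, the latter admitted through the knockouts alone, and Kcnh3 was not called), and 1 and 5 with limma-voom (7.33% and 6.05%, 13.4% in all).

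**Figure D5:**
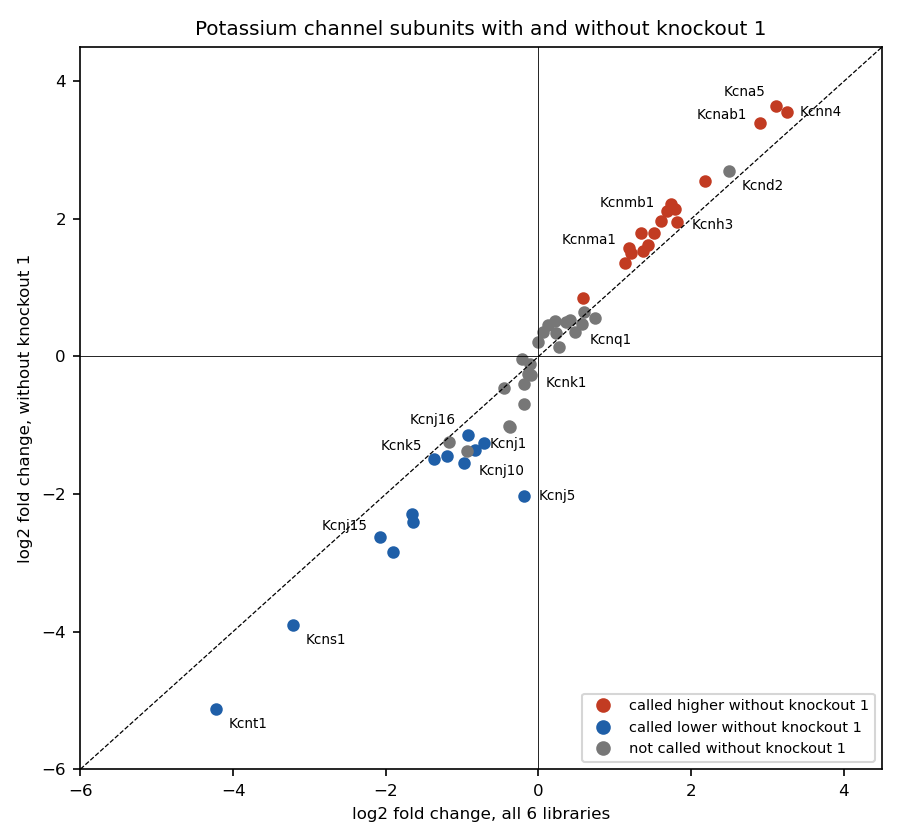
Log2 fold change of each tested potassium channel subunit from all 6 libraries (x axis) and without knockout 1 (y axis), with calls of the fit without knockout 1 in colour and a dashed line of equal values. Most of the 18 members called higher and 13 called lower lie farther from 0 without knockout 1, and Kcnj5 moves most, from -0.19 to -2.03.

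Genes that assemble with potassium channels or handle potassium beside them were read from a list of 37, of which 35 could be tested. Of these, 4 (11.4%, against 17.2% of all genes) were called, 3 higher and 1 lower, and 25 had a fold change below 0 (median -0.47 log2). Those given with values from this list were picked after their values were seen. Abcc8, the SUR1 subunit of ATP-sensitive channels, was 0.846, 0.646 and 0.42 CPM in controls 1 to 3 and 1.33, 3.56 and 3.14 CPM in knockouts 1 to 3 (log2 fold change 2.04, SE 0.50, edgeR adjusted p = 0.0401). Lrrc26, a gamma subunit of BK, was 0.796, 0.823 and 1.501 CPM in controls 1 to 3 and 2.01, 4.57 and 5.67 CPM in knockouts 1 to 3 (log2 fold change 1.96, SE 0.50, edgeR adjusted p = 0.0426). Lrrc52 of the same list lay the other way with no overlap but did not pass (log2 fold change -2.22, SE 0.71, edgeR adjusted p = 0.0681). The pore subunits with which Abcc8 and Lrrc26 assemble, Kcnj11 and Kcnj8 for Abcc8 and Kcnma1 for Lrrc26, were not called.

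The potassium-chloride cotransporters moved in both directions. Slc12a4 (KCC1) was 44.4, 37.8 and 31.4 CPM in controls 1 to 3 and 61.004, 64.3 and 75.6 CPM in knockouts 1 to 3 (log2 fold change 0.82, SE 0.17, edgeR adjusted p = 0.0324), and Slc12a7 (KCC4), which works beside basolateral potassium channels, was 197, 236 and 207 CPM in controls 1 to 3 and 162, 115 and 123 CPM in knockouts 1 to 3 (log2 fold change -0.68, SE 0.18, edgeR adjusted p = 0.0478). Slc12a1 (NKCC2), the apical cotransporter for which ROMK recycles potassium, was 4279.8, 2899 and 1462 CPM in controls 1 to 3 and 2221, 244 and 667 CPM in knockouts 1 to 3 and did not pass, with knockout 1 within the control range and knockouts 2 and 3 below it (edgeR adjusted p = 0.222). Slc12a3 (NCC) of the distal convoluted tubule was 1129.97, 1115 and 1686 CPM in controls 1 to 3 and 1250.4, 552 and 61.7 CPM in knockouts 1 to 3, with knockout 1 in the control range and knockout 3 lowest (edgeR adjusted p = 0.397). Atp1b1, a subunit of the sodium pump, which loads the cell with the potassium that the channels release, did not pass either (log2 fold change -0.99, SE 0.43, edgeR adjusted p = 0.141).

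Of the 36 symbols below the count rule, Kcna10, Kcnk9, Kcnk15, Kcnk16, Kcns2, Kcnv1 and Kcnmb3 had 0 counts in all 6 libraries. Kcna3 (Kv1.3), a T cell channel of the leukocyte list, had 1, 1 and 1 counts in the controls and 3, 23 and 3 in the knockouts. Kcnj9 and Kcnj3, both subunits of G protein-gated channels and named after their values were seen, are shown for their contrast. Kcnj9 had 1, 1 and 1 counts in the controls and 9, 16 and 8 in the knockouts, and Kcnj3 had 2, 10 and 27 and 2, 0 and 0. At such counts neither was tested.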

How the data were processed

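Poly-A RNA of 6 whole kidneys was sequenced on an Illumina HiSeq2000. The deposited tables, 1 per genotype, hold raw read counts by gene. Per the labels and the study's methods, the authors made these counts with CASAVA 1.8.2, Trimmomatic, TopHat2 2.0.11 on mm9 and HTSeq. The annotation and the strand setting were not given in the sources used here, so genes whose exons overlap are uncertain.

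Groups and replicate numbers came from the sample titles. In R 4.3.3, counts were filtered with filterByExpr (minimum count 10, minimum total 15), scaled by TMM and tested over all 6 libraries with edgeR 4.0.16's quasi-likelihood test, without covariates. Benjamini-Hochberg adjustment ran over 15171 genes. A call is an adjusted p under 0.05. The SE of a log2 fold change was its absolute value over the root of F. CPM is per 1e+06 TMM-scaled counts, and GENCODE M1 on NCBIM37 (mm9) gave exon lengths and coordinates. The test was first tested on simulated data. Alternatives used DESeq2 1.42.0, limma 3.58.1 (voom), other scalings and filters, a replicate block, a covariate of Xist relative to Y-linked counts (log2 ratio), and each library left out. Leaving out control 2 and knockout 1 together was added after seeing the data.

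The genes named are those of the tubule, vessel and leukocyte role lists, the 5 largest rises and 5 largest falls called among the others, the highest member of each family, and Tfrc. Others were picked after their values were seen. A few genes and sequences are not reported here, singly or in the plot of fold changes, but enter the counts. Members and lists were chosen with earlier results of these data known. Replicates of a group differed by 55.9 to 131.6 in chi-square per degree of freedom, so none was a repeat deposit of another. Counting error is small beside this spread. Deviations of same-numbered libraries had correlations of -0.13, 0.01 and 0.21, which neither show nor exclude a pairing.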

Additional observations from a re-analysis of the deposited data

How the results depend on the processing

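The direction of all 7 called members, of which the count rule admitted Kcns1 through the controls alone, was kept in every alternative, and the calls were not. Over all genes the number called was 2612. It was 4882 with DESeq2's Wald test, 0 with a replicate block and 0 with the covariate of Xist to Y-linked counts, and 5862 at an unadjusted p under 0.05. Leaving out 1 library gave 0 to 5332 (5332 without knockout 1, 73 without knockout 2, 2 without knockout 3 and 0 without any 1 of the controls). The 2 members called higher became 3 with a filter of at least 10 counts in 3 libraries (adding Kcnh8), 10 with library size alone, 13 with DESeq2, 1 with limma-voom, 0 with the block, 0 with the covariate, 8 without control 2 and knockout 1 together, 13 at the unadjusted p and 0 to 18 with 1 library left out. The 5 called lower became 9 with DESeq2, 0 with the block, 0 with the covariate, 10 without those 2 libraries together, 9 at the unadjusted p and 0 to 13 with 1 library left out. The 4 potassium handling genes called became 9, 0, 0, 10 and 9 in that order, and 0 to 14. Of all genes, 32.3% were called with DESeq2, 22.5% without those 2 libraries together, 38.6% at the unadjusted p and 34.4% without knockout 1. The larger counts of members and potassium handling genes thus came from fits that called more of all genes. In the block and covariate fits, edgeR gave an unadjusted p under 0.05 for 5432 and 4219 genes, 23 and 18 of them members. The replicate numbers gave correlations of deviations of -0.13, 0.01 and 0.21 between same-numbered libraries, which cannot decide whether these were paired.

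Library size alone shifted the median of all genes by 0.27 log2 and made 81.8% of calls higher against 61.4%. Among members near 0 the sign turned. Kcnn3 was 0.0873 with upper quartile scaling, 0.29 with library size alone, 0.000465 with a filter of 10 counts in 3 libraries, 0.16 with the covariate, 0.35 without control 2 and knockout 1, and -0.50 to 0.21 with 1 library left out. Kcnj8 was 0.12 with library size alone and -0.42 to 0.17 with 1 library left out, and Kcnk1 was 0.16 and -0.26 to 0.20. Tfrc was 0.14 with library size alone, 0.15 with the covariate and -0.96 to 0.29 with 1 library left out. The cause of these differences between settings was not tested. Members under about 1 CPM rest on few counts and 3 libraries a group, which limits the precision of their fold changes.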

Other observations

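Kcng1, a modulatory subunit of voltage-gated channels that the count rule left out, had 4, 100 and 5 counts in controls 1 to 3 and 2, 2 and 1 counts in knockouts 1 to 3, so nearly all of its reads came from control 2, the library that also stood apart in Xist and Y-linked counts. Kcnd2, a pore subunit of transient outward channels, was 0.945, 0.94 and 0.12 CPM in controls 1 to 3 and 2.65, 8.63 and 0.0766 CPM in knockouts 1 to 3, so the knockouts held both the highest and the lowest level of the 6 libraries (log2 fold change 2.49, SE 1.26, edgeR adjusted p = 0.189, and 1.06 log2 without knockout 2). Kcnj5, a subunit of G protein-gated channels whose gene lies 28180 bases from Kcnj1 on the opposite strand, was 6.17, 2.29 and 2.34 CPM in controls 1 to 3 and 7.66, 0.853 and 0.919 CPM in knockouts 1 to 3. In it, as in Kcnj1, controls and knockouts labelled replicate 1 were the highest of their group. These genes were picked after their values were seen.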
